A study of Mus musculus with 27 samples.

Results

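*Cyp1a1* and *Cyp1b1*, 2 of the 46078 genes counted by RNA-Seq, were followed in scrapings of distal ileal epithelium from 27 male C57BL/6 mice. Both were found by Ensembl gene identifier (ENSMUSG00000032315 and ENSMUSG00000024087), and both passed the filter on low counts. The controls were 3 mice gavaged with sesame oil vehicle, and 3 mice received each of 8 doses of TCDD. The doses below 1 µg/kg were 0.01 and 0.03, then 0.1 and 0.3, and the others were 1, 3, 10 and 30 µg/kg. Dosing was repeated each 4 d over 28 d, and tissue was taken on postnatal day 56. No genetic change is named for any animal, and mice were co-housed in cages that the labels leave unnamed. Scrapings can hold all the epithelial lineages and part of the tissue beneath, so a higher level in expressing cells and a larger number of such cells cannot be told apart in these libraries.

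CYP1A1 and CYP1B1 are heme-containing monooxygenases that oxidise planar aromatic compounds, estrogens and arachidonic acid. Their genes are known targets of the aryl hydrocarbon receptor (AhR), which binds TCDD, enters the nucleus, pairs with ARNT and recognises dioxin response elements (DREs), whose core is the pentamer GCGTG. In the intestine CYP1A1 is known as an inducible enzyme of the epithelial barrier that also clears dietary AhR ligands, whereas CYP1B1 is better known from stromal and endocrine tissues. TCDD is bound tightly by AhR and is hardly metabolised by either enzyme.

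In GRCm38, *Cyp1a1* lies on the plus strand of chromosome 9 from 57687928 to 57703824, and *Cyp1b1* on the minus strand of chromosome 17 from 79701537 to 79715061. The promoter windows of both are shown because each holds 1 DRE core close to its start, while that of *Cyp1a2*, the gene next to *Cyp1a1*, holds none. They are RefSeq windows (GRCm38.p6) of 250 bases before to 50 after the annotated start, at chr9:57697363-57697662 (plus strand) for *Cyp1a1*, chr17:79715012-79715311 (minus strand) for *Cyp1b1* and chr9:57683606-57683905 (minus strand) for *Cyp1a2*, written 5′ to 3′ with the core in capitals.
Cyp1a1: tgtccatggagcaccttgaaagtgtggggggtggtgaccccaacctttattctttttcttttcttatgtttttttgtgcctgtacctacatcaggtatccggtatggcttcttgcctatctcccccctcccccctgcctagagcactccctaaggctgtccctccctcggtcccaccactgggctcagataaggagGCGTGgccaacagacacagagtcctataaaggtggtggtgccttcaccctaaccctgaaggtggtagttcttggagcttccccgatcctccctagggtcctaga
Cyp1b1: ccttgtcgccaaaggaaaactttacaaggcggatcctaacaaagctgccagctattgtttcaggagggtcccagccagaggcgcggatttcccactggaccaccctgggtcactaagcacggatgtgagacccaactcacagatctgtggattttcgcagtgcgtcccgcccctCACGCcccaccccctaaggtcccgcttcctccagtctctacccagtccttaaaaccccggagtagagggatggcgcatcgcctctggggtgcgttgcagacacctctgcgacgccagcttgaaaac
Cyp1a2: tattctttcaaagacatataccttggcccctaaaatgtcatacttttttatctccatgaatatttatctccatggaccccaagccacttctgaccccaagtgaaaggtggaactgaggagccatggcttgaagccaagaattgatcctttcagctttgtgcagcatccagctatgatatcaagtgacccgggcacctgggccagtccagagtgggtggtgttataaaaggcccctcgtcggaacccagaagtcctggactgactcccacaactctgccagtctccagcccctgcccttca
The *Cyp1a1* core GCGTG spans positions -54 to -50 from the RefSeq start. The *Cyp1b1* core, present as its reverse complement CACGC, spans -76 to -72 from its own. The RefSeq start of *Cyp1a1* lies inside the gene span given above, not at its first base. GCGTG on either strand was found in 32.4% of the 32851 mouse windows of this length, so holding 1 core is common and marks neither gene out. The enhancer region described for *Cyp1a1* lies further upstream than these windows.

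Gene counts per mouse ranged from 12.26 to 17.14 M (median 14.14 M), 0 of 27 pairs of mice at the same dose agreed within sampling noise, and 16741 genes were tested. A call required both an adjusted p no higher than 0.05 and a change of 1.5-fold or more. Index use was inferred from the index (the short tag of each library) and the order of the mouse numbers. By that order, the same tags served 16 mice (all of vehicle to 0.3 µg/kg, with the first at 1 µg/kg) and then the other 11. Whether these uses were separate pools or runs is not labelled. No mouse at 3, 10 or 30 µg/kg shares its inferred index use with a vehicle mouse. A fit with index use as a covariate separates it from dose only through the 3 mice at 1 µg/kg. Steps among those 3 doses lie within 1 index use.

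*Cyp1a1* went from a handful of reads to one of the most abundant ileal transcripts. Vehicle mice had 3, 0 and 2 counts, or 0.211, 0 and 0.138 counts per 1 M library counts (CPM), with a mean of 0.117 ± 0.107 CPM (SD, n = 3). At 0.01 µg/kg the mice had 0.581, 0.0724 and 0 CPM, and those at 0.03 µg/kg were at 0.0781, 0.0764 and 0.138 CPM. At 0.1 µg/kg they had 0.0692, 0.557 and 0.335 CPM, and at 0.3 µg/kg 0.23, 0 and 0.887 CPM. Mice of these 4 doses overlapped vehicle, and each value rests on 0 to 14 counts.

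From 1 µg/kg upwards the *Cyp1a1* levels of no 2 neighbouring doses overlapped. The mice had 3.32, 4.68 and 6.30 CPM at 1 µg/kg, from 59, 61 and 103 counts. At 3 µg/kg they had 14.2, 64.7 and 57.2 CPM, and the first of these mice sat well below the other two. Levels at 10 µg/kg were 516, 529 and 647 CPM, the closest agreement of any dose with more than a few counts, and those at 30 µg/kg were 1062, 1881 and 2279 CPM. The mean was 4.77 ± 1.49 CPM at 1, 45.4 ± 27.3 at 3, 564 ± 72.3 at 10 and 1741 ± 621 CPM at 30 µg/kg (SD, n = 3). The first mouse at 1 µg/kg shares its index use with all lower doses, and its 3.32 CPM stood above the highest of those 15 mice (0.887 CPM).

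**Figure D1:**
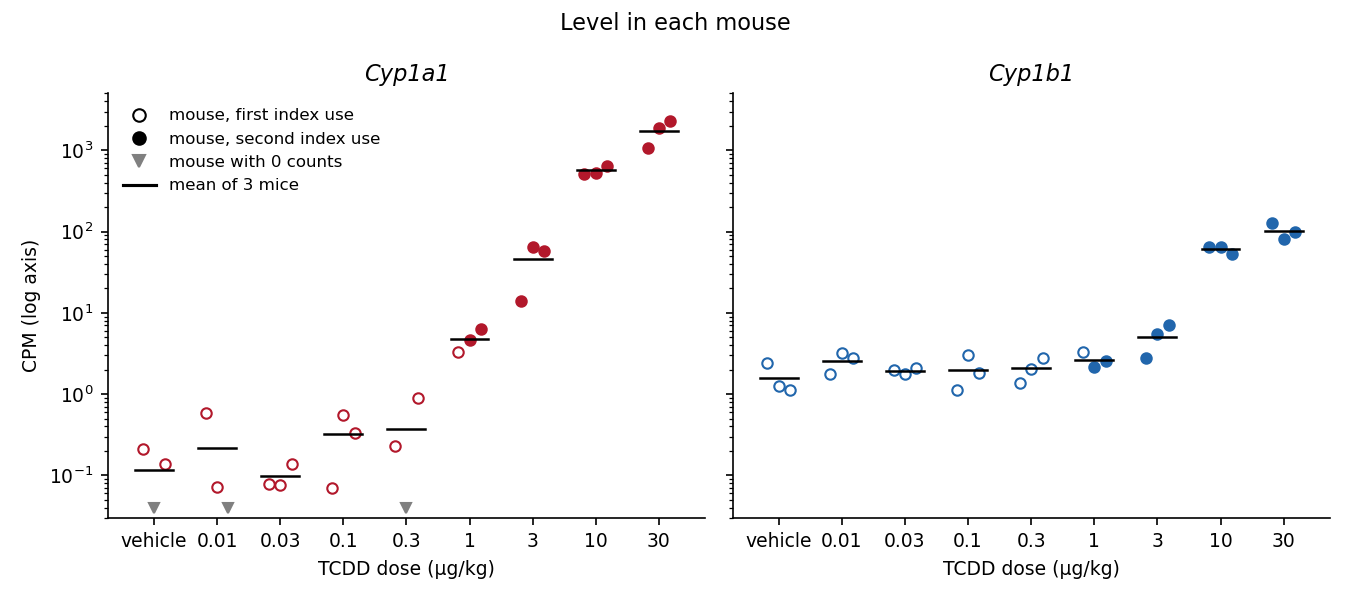
Level of *Cyp1a1* (left) and *Cyp1b1* (right) in each of 27 mice, in CPM on a log axis, against TCDD dose in µg/kg. Open and filled points are mice of the first and second library index use, grey triangles at the bottom are mice with 0 counts, and lines are means of 3 mice. *Cyp1a1* climbs from 4.77 CPM at 1 µg/kg to 1741 CPM at 30 µg/kg, and *Cyp1b1* stays near its vehicle level to 1 µg/kg and jumps between 3 and 10 µg/kg.

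Against vehicle, *Cyp1a1* rose by 5.23 (SE 0.96) on the log2 scale at 1 µg/kg, a 37.5-fold change (adjusted p = 0.0084, edgeR), when 0.4% of tested genes were called up. At 3 µg/kg it rose 358-fold (log2 8.49, SE 0.75, adjusted p = 9.92e-07, edgeR), at 10 µg/kg 4443-fold (log2 12.12, SE 0.72, adjusted p = 1.15e-10, edgeR) and at the highest dose, 30 µg/kg, 13706-fold (log2 13.74, SE 0.73, adjusted p = 9.16e-12, edgeR). Genes called up made 0.645%, 1.76% and 5.42% of those tested at these doses. The *Cyp1a1* rise was the largest of all 16741 genes at 3, 10 and 30 µg/kg and the second largest at 1 µg/kg.

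The sizes of these folds rest on 5 counts in the vehicle mice together. From the summed counts and library sizes, the ratio to vehicle was 40.0 at 1 µg/kg, with an exact 95% interval of 16.9 to 124, and 14494 at 30 µg/kg, with an interval of 6210 to 44640, for counting error only. All 3 mice at each of 1, 3, 10 and 30 µg/kg stood above all vehicle mice (exact permutation p = 0.1, two-sided, the smallest that 3 against 3 mice can give). With index use as a covariate, the call at 1 µg/kg was lost (log2 4.71, adjusted p = 0.153, edgeR), as it was without the third vehicle mouse (log2 5.36, adjusted p = 0.0784, edgeR).

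The place of *Cyp1a1* within each library moved accordingly. Ranked by CPM per kilobase of exon among 45143 genes, it held places 19924 to 21997 in the vehicle libraries. Place 21997 was that of the second vehicle mouse, which had 0 counts, so it is tied there with every undetected gene. Its place rose to between 132 and 147 in mice given 10 µg/kg and to between 52 and 78 at the highest dose, where it took 0.109% to 0.201% of all gene counts.

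*Cyp1b1* started from a higher count and was first called at a higher dose. Vehicle mice had 34, 17 and 16 counts, or 2.39, 1.25 and 1.11 CPM, with a mean of 1.58 ± 0.71 CPM (SD, n = 3). Mice at 0.01 to 0.3 µg/kg spanned 1.11 to 3.18 CPM, overlapping vehicle at each dose, and their means were 2.57, 1.93, 1.98 and 2.06 CPM in order of dose. At 1 µg/kg the mice had 3.26, 2.15 and 2.57 CPM, which still overlapped the vehicle range.

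At 3 µg/kg *Cyp1b1* stood at 2.75, 5.46 and 7.04 CPM, all above the vehicle mice. At 10 µg/kg it stood at 64.1, 65.1 and 53.7 CPM, and at 30 µg/kg at 127, 81.9 and 99.0 CPM. Means were 2.66 ± 0.56, 5.08 ± 2.17, 61.0 ± 6.32 and 102.6 ± 22.8 CPM at 1, 3, 10 and 30 µg/kg (SD, n = 3).

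Against vehicle, *Cyp1b1* was not called at 1 µg/kg (log2 0.76, SE 0.38, adjusted p = 0.366, edgeR). It rose 3.24-fold at 3 µg/kg (log2 1.69, SE 0.35, adjusted p = 0.0112, edgeR), 38.3-fold at 10 µg/kg (log2 5.26, SE 0.32, adjusted p = 1.35e-10, edgeR) and, at 30 µg/kg, 64.5-fold (log2 6.01, SE 0.32, adjusted p = 9.16e-12, edgeR). It was the fourth largest rise of all tested genes at 10 and 30 µg/kg and the 64th at 3 µg/kg. The call at 3 µg/kg was lost with index use as a covariate (log2 2.15, adjusted p = 0.201, edgeR), without the third vehicle mouse (adjusted p = 0.105, edgeR) and without the third mouse at 3 µg/kg (adjusted p = 0.106, edgeR). The 67 vehicle counts gave a count ratio of 65.2 at 30 µg/kg with an exact 95% interval of 51.2 to 84.3.

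Neither gene was called at 0.01, 0.03, 0.1 or 0.3 µg/kg, where log2 fold changes ran from -0.24 to 1.57 for *Cyp1a1* (SE 1.59 to 2.18) and from 0.28 to 0.71 for *Cyp1b1* (SE 0.39 to 0.41). At these doses edgeR called 0 of 16741 genes (0% up and 0% down), although 407, 273, 501 and 663 genes had a rise and 292, 318, 536 and 584 a fall at an unadjusted p under 0.05. DESeq2 called 3, 0, 3 and 4 genes up and 0, 0, 2 and 13 down. With so few reads, a *Cyp1a1* change of the size of these standard errors was not detectable at this depth. The *Cyp1b1* count ratio was 1.65 at 0.01 µg/kg (106 against 67 counts, of libraries of unequal size), with the 3 mice overlapping vehicle.

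The step from each dose to the next placed the 2 responses along the dose axis. *Cyp1a1* gained 3.66 (SE 0.74) on the log2 scale from 0.3 to 1 µg/kg, which was not called by edgeR (adjusted p = 0.263). At this step edgeR called 0 genes up (0%), with 570 up at an unadjusted p under 0.05. DESeq2 called 7 genes up, *Cyp1a1* among them (adjusted p = 0.0405, DESeq2), and edgeR without the filter on low counts also called it (adjusted p = 0.00109, edgeR). From 1 to 3 µg/kg *Cyp1a1* rose by 3.26 (SE 0.44, adjusted p = 0.00231, edgeR) and was the only gene of 16741 called up (0.00597%). It was not called at that step by DESeq2 (adjusted p = 0.211) or without the first mouse at 1 µg/kg (adjusted p = 0.0759, edgeR).

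The step from 3 to 10 µg/kg was shared. *Cyp1a1* rose by 3.63 (SE 0.40, adjusted p = 2.25e-05, edgeR) and *Cyp1b1* by 3.56 (SE 0.28, adjusted p = 3.33e-08, edgeR), 12.4-fold and 11.8-fold. Only 7 genes were called up at this step (0.0418%). The others were *Ahrr*, which encodes the AhR repressor (6.45-fold), *Dgkh*, a diacylglycerol kinase (1.97-fold), *Ildr1* (1.90-fold), the long noncoding RNA *2610035D17Rik* (2.21-fold) and *Slc6a7*, an amino acid transporter (1.52-fold). All mice of these 2 doses had a second index use.

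From 10 to 30 µg/kg *Cyp1a1* rose by 1.63 (SE 0.37, adjusted p = 0.0473, edgeR), when 0.197% of genes were called up, and *Cyp1b1* was not called (log2 0.75, SE 0.23, adjusted p = 0.161, edgeR). The *Cyp1a1* call was lost in DESeq2 (adjusted p = 0.336) and in 5 of the 6 fits that left out 1 mouse. For both genes the mice at 30 µg/kg all stood above those at 10 µg/kg (exact permutation p = 0.1). For *Cyp1b1* the steps below 3 µg/kg and that from 1 to 3 µg/kg were not called (adjusted p = 0.994 for the last, edgeR), their mice overlapped, and genes called up made 0% at each step up to 1 µg/kg. Over the whole upper range, *Cyp1a1* rose by 8.51 and *Cyp1b1* by 5.25 on the log2 scale from 1 to 30 µg/kg (1.71% of genes called up), and by 5.26 and 4.32 from 3 to 30 µg/kg (0.645% called up).

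**Figure D2:**
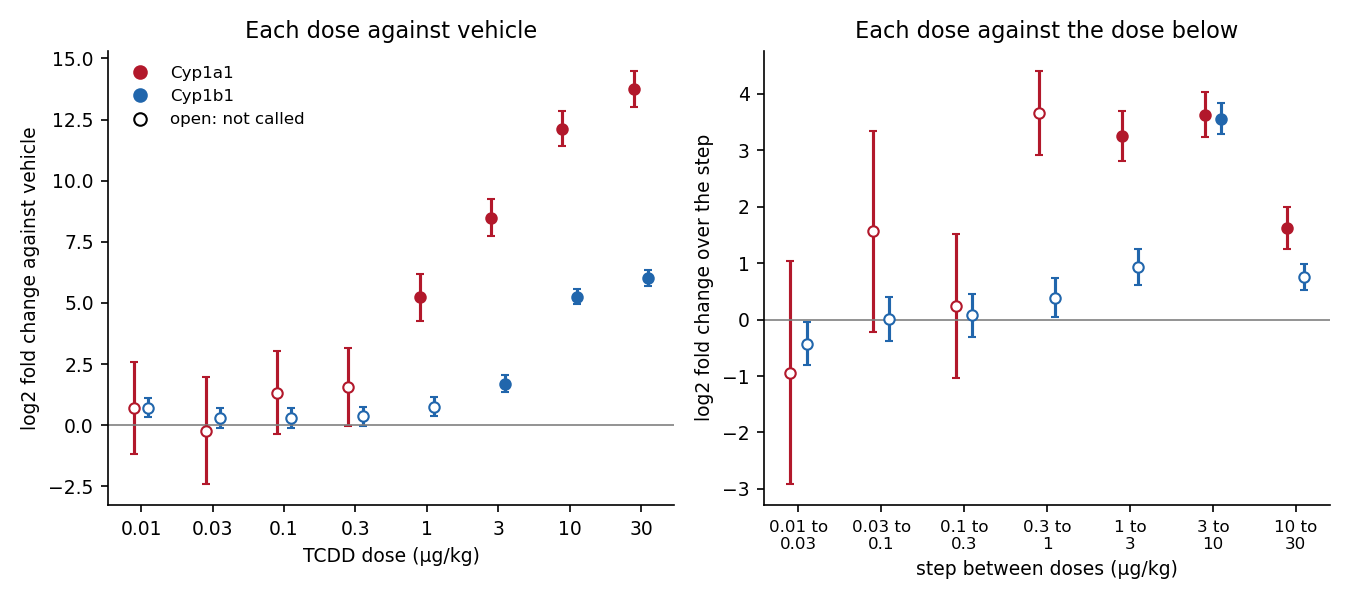
Log2 fold changes of *Cyp1a1* (red) and *Cyp1b1* (blue) from edgeR, with bars of 1 standard error, for each TCDD dose against vehicle (left) and for each dose against the dose below it (right), in µg/kg. Filled points were called and open points were not. The genes share a step of 3.63 and 3.56 from 3 to 10 µg/kg, while the steps of 3.66 and 3.26 from 0.3 to 1 and from 1 to 3 µg/kg belong to *Cyp1a1*.

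A Hill curve on log2 CPM put the half-way dose (ED50) of *Cyp1a1* at 2.41 µg/kg, with a 95% range of 1.75 to 4.05 and a slope of 1.1. That of *Cyp1b1* was 4.95 µg/kg, with a range of 3.82 to 6.30 and a slope of 2.5, so the ranges overlapped at their edges. On the linear CPM scale the order turned, with 15.5 µg/kg for *Cyp1a1* (range 10.4 to the bound of the fit at 30) and 9.21 µg/kg (7.85 to 11.0) for *Cyp1b1*. The order of the 2 ED50 values thus depended on the scale, and *Cyp1a1* showed no plateau within the doses given.

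Levels of both genes followed the rank of the dose over all 27 mice. Spearman's rho was 0.870 for *Cyp1a1* (Pearson's r = 0.906) and 0.773 for *Cyp1b1* (r = 0.803). Each had a permutation p of 1e-05, the smallest that the permutations can give, with adjusted values of 4e-05 for rho and 2.4e-05 for r over 12 relations. Leaving out any pair of mice at the ends of the dose scale kept r at 0.882 to 0.923 and 0.748 to 0.815. Among the 16 mice with a first index use, rho was 0.377 for *Cyp1a1* (permutation p = 0.152, adjusted 0.227) and 0.296 for *Cyp1b1* (permutation p = 0.266, adjusted 0.355), and r was 0.521 (permutation p = 0.0351, adjusted 0.0602) and 0.261 (permutation p = 0.326, adjusted 0.391). Among the other 11, given 1 to 30 µg/kg, it was 0.970 for both (permutation p = 2e-05 and 3e-05, adjusted 6e-05 and 7.2e-05), and r was 0.969 and 0.946 (permutation p = 1e-05, adjusted 2.4e-05). Restricted to vehicle and the doses up to 0.3 µg/kg, rho was 0.241 for *Cyp1a1* (permutation p = 0.395, adjusted 0.431) and 0.142 for *Cyp1b1* (permutation p = 0.622, adjusted 0.622), with r of 0.303 (permutation p = 0.270, adjusted 0.360) and 0.107 (permutation p = 0.700, adjusted 0.700).

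The balance between the 2 genes turned over between 0.3 and 1 µg/kg. Per kilobase of exon (2787 bases for *Cyp1a1*, 5840 for *Cyp1b1*), the mean vehicle level of *Cyp1b1* was 6.48 times that of *Cyp1a1*. At 1 µg/kg *Cyp1a1* was 3.76 times *Cyp1b1* per kilobase, at 3 µg/kg 18.7 times, at 10 µg/kg 19.4 times and at 30 µg/kg 35.5 times. The difference of log2 CPM within a mouse averaged -2.77 ± 0.57 in vehicle and 0.78 ± 0.66, 2.95 ± 0.62, 3.21 ± 0.33 and 4.03 ± 0.84 at 1, 3, 10 and 30 µg/kg (SD, n = 3). All 3 mice at each of these doses exceeded all vehicle mice, with mean differences from vehicle of 3.55, 5.72, 5.98 and 6.81 (exact permutation p = 0.1 each, the smallest possible). These sizes depend on the prior count added to the few vehicle reads of *Cyp1a1*: with 0.5 in place of 2 they were 4.54, 6.71, 6.94 and 7.77, and the vehicle mean was -3.74. At 0.01 to 0.3 µg/kg the differences were -0.47, -0.35, 0.51 and 0.27 (exact permutation p = 0.7, 0.5, 0.3 and 0.7). Over all 27 mice this difference followed the rank of the dose with rho = 0.867 and r = 0.900 (permutation p = 1e-05 each, adjusted 4e-05 and 2.4e-05). Within the first index use rho was 0.412 (permutation p = 0.115, adjusted 0.198) and r 0.463 (permutation p = 0.0701, adjusted 0.105), and within the second rho was 0.829 (permutation p = 0.00272, adjusted 0.00544) and r 0.844 (permutation p = 0.00108, adjusted 0.00216).

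**Figure D3:**
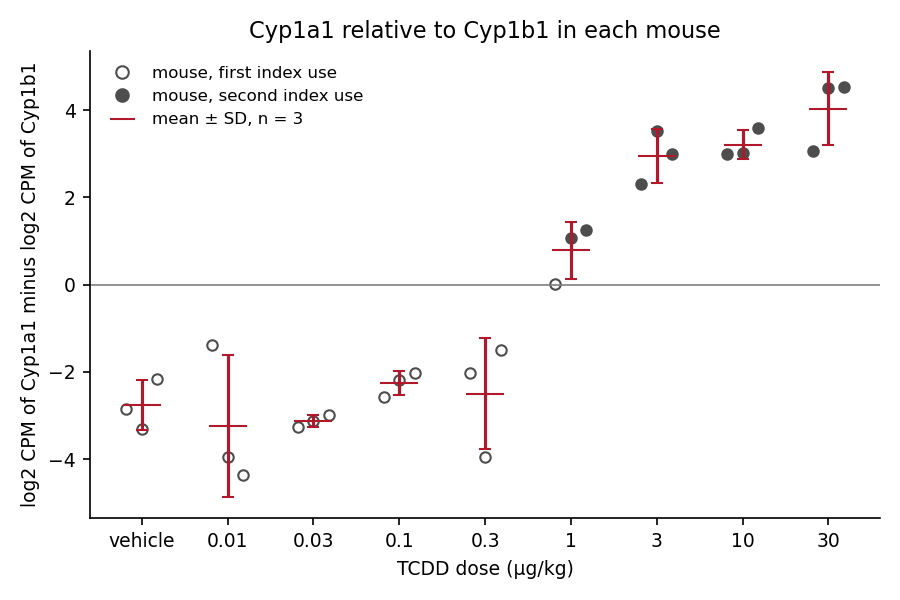
Log2 CPM of *Cyp1a1* minus that of *Cyp1b1* in each of 27 mice against TCDD dose in µg/kg, with open and filled points for the first and second library index use and red bars for the mean ± SD of 3 mice. The difference moves from a mean of -2.77 in vehicle to 0.78 at 1 µg/kg and 4.03 at 30 µg/kg, and the values at 3 and 10 µg/kg (2.95 and 3.21) overlap.

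Within the higher doses, the order of the mice was compared between the genes. The first mouse at 3 µg/kg was the lowest of its group in both, with 14.2 CPM of *Cyp1a1* and 2.75 CPM of *Cyp1b1*, while its *Ahrr* level of 5.97 CPM lay between the other two (5.67 and 6.01 CPM). At 30 µg/kg the first mouse was the lowest in *Cyp1a1* (1062 CPM) and the highest in *Cyp1b1* (127 CPM) and *Ahrr* (88.9 CPM). The same mouse had the lowest summed enterocyte markers of its dose (14491 CPM, against 34571 and 30882) and the highest summed smooth muscle markers (345 CPM, against 78.6 and 36.2) and fibroblast markers (106 CPM, against 48.9 and 65.8). It was also the highest of its dose in summed goblet (33520 CPM), Paneth (3467 CPM), stem cell (105 CPM) and endothelial markers (52.6 CPM). Its macrophage and T cell sums were the lowest, and its enteroendocrine and B and plasma cell sums lay between. Mitochondrial genes made 3.15% of its counts, the highest share of the 27 libraries (median 2.07%). Whether its cell makeup or this share had a part in these levels was not tested. Over all 27 mice, deviations from the dose means of the 2 genes had r = 0.336 (permutation within doses, p = 0.237) and rho = 0.271 (permutation p = 0.313). Without the 2 mice farthest from the median, r was 0.306. Leaving out 1 dose group at a time moved r between 0.155 (without 3 µg/kg, permutation p = 0.618) and 0.558 (without 0.01 µg/kg, permutation p = 0.0689), and within the first and second index use it was 0.280 (permutation p = 0.408, n = 15) and 0.597 (permutation p = 0.403, n = 11). The relation did not pass the test in any of the settings tested, and r without the 2 farthest mice was given no test.

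Of the AhR pathway list of 16 genes, 14 were tested, and the number called up grew from 0 at 0.3 µg/kg to 1 at 1 and 3, 3 at 10 and 6 at 30 µg/kg, while 0 were called down at any dose. With index use as a covariate the number up was 0 at 1 and 3, 2 at 10 and 4 at 30 µg/kg. The share of all tested genes called up was 0.4%, 0.645%, 1.76% and 5.42% at 1, 3, 10 and 30 µg/kg. The share called down was 0.191%, 0.46%, 0.771% and 3.98%. The median log2 fold change of the list was 0.29 at 30 µg/kg, beside 0.02 over all tested genes. Neither member belongs to the list.

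The receptor was not called. *Ahr* was at 18.3 ± 1.90 CPM in vehicle and 22.6 ± 2.83 CPM at 30 µg/kg (SD, n = 3; log2 0.30, adjusted p = 0.102, edgeR). *Arnt*, the nuclear partner, and *Hsp90ab1* and *Ptges3*, cytosolic chaperones of the receptor, were not called either and had log2 fold changes of 0.18, -0.23 and -0.22 at 30 µg/kg.

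Both feedback genes were called up at 30 µg/kg. *Ahrr*, a repressor that competes with AhR for ARNT, had 2.53, 2.27 and 2.63 CPM in vehicle mice and 4.28, 4.22 and 3.79 CPM at 1 µg/kg. Mice at 10 µg/kg had 43.7, 39.1 and 31.2 CPM, while the highest dose gave 88.9, 55.7 and 77.8 CPM. Its means at 0.01, 0.03, 0.1 and 0.3 µg/kg were 3.72, 3.32, 3.34 and 3.52 CPM. Each mouse at these doses stood above all vehicle mice, although no rise was called (log2 0.58, 0.42, 0.43 and 0.51, edgeR). Mice at 1 µg/kg overlapped those at 0.01 µg/kg, so the lowest called dose does not place the start of the rise. *Ahrr* was called up at 1 µg/kg (1.65-fold, adjusted p = 0.0452, edgeR), at 3 µg/kg (2.37-fold, adjusted p = 0.000774, edgeR), at 10 µg/kg (15.2-fold) and at 30 µg/kg (29.8-fold, adjusted p = 5e-16, edgeR). The calls at 1 and 3 µg/kg were lost with index use as a covariate, and that at 1 µg/kg in DESeq2. *Tiparp*, a mono-ADP-ribosyltransferase that restrains AhR, rose 1.82-fold at 30 µg/kg (adjusted p = 0.000473, edgeR), a call lost with index use as a covariate (adjusted p = 0.257, edgeR). *Tiparp* was not called at lower doses. Its log2 fold changes were -0.41 to -0.02 at 0.01 to 3 µg/kg, and 0.51 at 10 µg/kg (adjusted p = 0.0641, edgeR).

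Among the target enzymes, *Ugt1a6a* and *Ugt1a6b*, which glucuronidate phenols, rose 3.23-fold and 3.10-fold at 30 µg/kg (adjusted p = 9.55e-07 and 6.99e-05, edgeR). At 10 µg/kg their rises were 2.02-fold and 2.27-fold, and the call of *Ugt1a6a* was lost with index use as a covariate (adjusted p = 0.0860, edgeR). Genes of the *Ugt1a* cluster share exons, so the split of reads between them is uncertain. *Cyp2s1*, another AhR-responsive P450, rose 1.69-fold (adjusted p = 0.000473, edgeR) and *Nfe2l2*, the regulator of antioxidant genes, 1.51-fold at 30 µg/kg (adjusted p = 0.00144, edgeR). The *Nfe2l2* call was lost with index use as a covariate (adjusted p = 0.134, edgeR). *Nqo1* and *Gsta1*, members of the AhR battery known from liver, had log2 fold changes of 0.07 and -0.07, and *Aldh3a1* was too low to be tested.

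**Figure D4:**
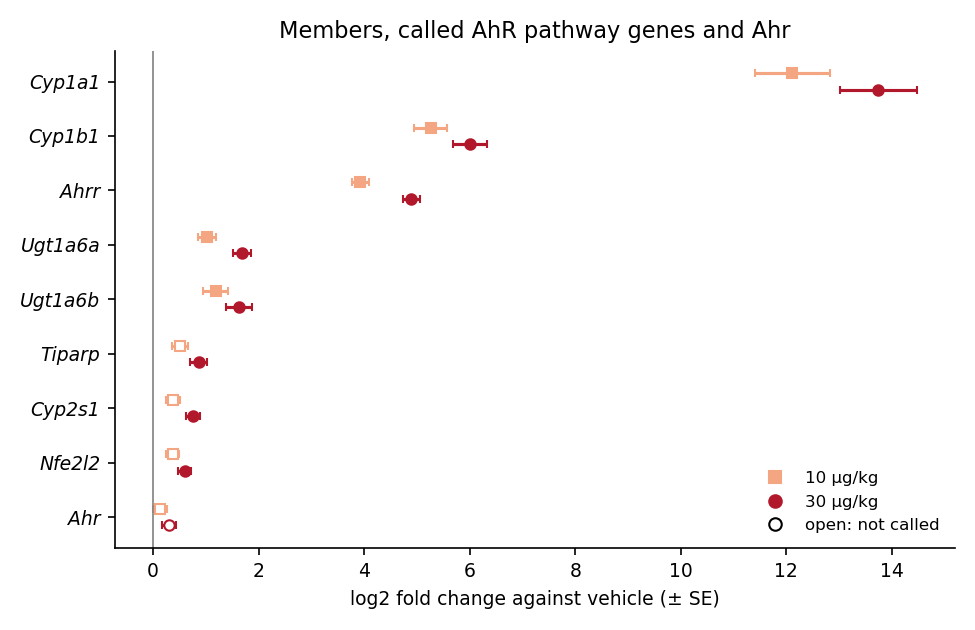
Log2 fold changes against vehicle at 10 µg/kg (squares) and 30 µg/kg (circles) with bars of 1 standard error from edgeR, for *Cyp1a1*, *Cyp1b1*, the 6 genes of the AhR pathway list called at 10 or 30 µg/kg and *Ahr*, ordered by the change at 30 µg/kg. Filled symbols were called. *Cyp1a1* (13.74) and *Cyp1b1* (6.01) stand beyond *Ahrr* (4.90), and the other genes shown lie between 0.30 and 1.69 at 30 µg/kg.

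*Cyp1a2*, which encodes the CYP1 enzyme best known from liver, lies on the opposite strand to *Cyp1a1* and stayed almost silent. It lies 4225 bases from the gene span of *Cyp1a1*, a distance not counted from the RefSeq start of the promoter window. It had 0 counts in all 21 mice from vehicle to 3 µg/kg, which allows a level of up to 0.00987 CPM over them (a limit of 3 counts, for counting error only). Mice at 10 µg/kg had 2, 1 and 3 counts and those at 30 µg/kg had 9, 2 and 12. The 23 counts at 30 µg/kg made the summed level 8.28 times the limit of 3 counts over the vehicle group. No test was made because the gene was below the filter. *Cyp1a2* counts equalled 0.00822% to 0.0607% of the *Cyp1a1* counts of the same mice. Of all 50-base stretches of *Cyp1a1* transcripts, 3.43% also occur in *Cyp1a2* transcripts, and whether reads of one were assigned to the other was not tested. No 50-base stretch of *Cyp1b1* occurs in transcripts of another gene.

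P450 enzymes depend on electron donors and on heme. Of 11 genes for these, 1 was called up at 30 µg/kg, where 5.42% of all tested genes were, and 0 were called at lower doses. *Por*, the reductase that passes electrons to microsomal P450s, rose 1.98-fold at 30 µg/kg (adjusted p = 0.00142, edgeR), from 65.6 ± 6.81 to 129.9 ± 52.1 CPM (SD, n = 3), a call lost with index use as a covariate (adjusted p = 0.0545, edgeR). *Alas1*, the first enzyme of heme synthesis, had a log2 fold change of -0.03 (adjusted p = 0.886, edgeR), and *Alad*, the next enzyme, had -0.58 (adjusted p = 0.00111, edgeR), just short of the fold limit and so not called.

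Tested genes around the 2 loci showed far smaller changes than the members. Within 100 kb of *Cyp1a1* the tables list 10 genes, of which 6 were tested. Their median log2 fold change at 30 µg/kg was 0.33, beside 0.02 over all tested genes, and 0 were called at that dose. *Ulk3*, a kinase gene 91695 bases away, rose 1.64-fold at 10 µg/kg (adjusted p = 0.00214, edgeR), when 1.76% of tested genes were called up. At 30 µg/kg it was under the fold limit (log2 0.39, adjusted p = 0.0416, edgeR). *Edc3*, the nearest gene on the other side, had a log2 fold change of 0.30 at 30 µg/kg (adjusted p = 0.0246, edgeR), under the fold limit. So did *Clk3* (0.39, adjusted p = 0.0180, edgeR) and *Arid3b* (0.36, adjusted p = 0.0201, edgeR). *Arid3b* had 0.51 at 1 µg/kg (adjusted p = 0.0190, edgeR). *Csk* (0.15, adjusted p = 0.171, edgeR) and *Scamp2* (-0.15, adjusted p = 0.264, edgeR) did not pass the adjusted p limit at 30 µg/kg. The only tested gene within 100 kb of *Cyp1b1* was *Rmdn2* (log2 0.72 at 30 µg/kg, adjusted p = 0.0853, edgeR).

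Genes whose log2 CPM ran most like the members over the 27 mice were picked by Pearson's r, given here as a measure of likeness among mice that share libraries and a dose scale. For *Cyp1a1* they were *Dgkh* (0.961), *Ugt1a5* (0.956), *Slc6a7* (0.944), *Per2*, a clock gene (0.939), and *Cyp1b1* itself (0.929). For *Cyp1b1* they were *Ahrr* (0.982), *Dgkh* (0.959), *Ugt1a7c* (0.953), *Ces1f*, a carboxylesterase (0.937), and *Slc6a7* (0.932). *Dgkh*, on both lists, had a mean of 11.9 ± 1.13 CPM in vehicle and 51.5 ± 0.90 CPM at 30 µg/kg (SD, n = 3), given without a test because it was chosen for its likeness to the members. Ranking by Spearman's rho kept 3 of the 5 genes for *Cyp1a1* and 0 of the 5 for *Cyp1b1*, whose closest gene was then *Hif3a* (rho = 0.873).

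All 8 enterocyte markers were detected in every group, with a summed level of 17767 to 19737 CPM in vehicle and 14491 to 34571 CPM at 30 µg/kg, and 2 of the 8 (*Slc5a1* and *Fabp1*) were called up at 30 µg/kg. Markers of other cells were also present at every dose. Fibroblast markers summed to 80.6 to 178 CPM in vehicle and 48.9 to 106 CPM at 30 µg/kg, with 0 of 6 called. Smooth muscle markers summed to 25.0 to 109.5 CPM in vehicle and 36.2 to 345 CPM at 30 µg/kg, with 0 of 6 called. Enteroendocrine markers rose in 4 of 6 (*Pyy*, *Chga*, *Chgb* and *Neurod1*), *Vwf* rose among 4 endothelial markers, *Zg16* rose among 6 goblet cell markers, *Lgr5* fell among 4 stem cell markers, and *Jchain* and *Mzb1* fell among 4 B and plasma cell markers at 30 µg/kg, where 5.42% of all tested genes were called up and 3.98% down. The part of these cells in the levels of *Cyp1a1* and *Cyp1b1* was not tested.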

How the data were processed

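Reads were trimmed with Trimmomatic 0.33 and aligned to GRCm38 with TopHat2 2.1.0, and HTSeq 0.6.1 is listed for counting (submitters' processing notes). The authors deposited raw counts for each Ensembl gene and mouse, without normalization. Strand and multi-mapping options are not given in the sources used here. Symbols and positions came from GENCODE M21 (GRCm38). The closing rows for unassigned reads were left out of library sizes, and reads on no gene made 44.5% to 49.5%.

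Genes kept by filterByExpr (minimum count 10) were TMM-normalized and fitted with edgeR 4.0.16 (R 4.3.3). The quasi-likelihood test had 9 groups and no covariate, with Benjamini-Hochberg adjustment over 16741 genes. The procedure was tested on simulated data, with changes planted only in genes of a higher vehicle level than either member. Counts as low as those of the members in vehicle were thus not covered. Log2 CPM used a prior count of 2. Trends used 100000 permutations, and Hill curves had 4 parameters. Alternatives included DESeq2 1.42.0 and leaving out each mouse. Named genes were the members, AhR and P450 list genes and neighbours within 100 kb called at 1 or more doses, *Cyp1a2*, *Ahrr* and *Ahr*, and the 5 genes most like each member. Others named were chosen after their values were seen. The members and lists were chosen with earlier results of these data known. The single result of 1 list gene is not reported here.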

Additional observations from a re-analysis of the deposited data

How the results depend on the processing

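Calls of both genes at 10 and 30 µg/kg held under every alternative that could be run. *Cyp1a1* was left out by a minimum of 10 counts in every mouse, so that alternative gave no value for it. With library index use added as a covariate, *Cyp1a1* at 1 µg/kg had a log2 fold change of 4.71 and that of *Cyp1b1* at 3 µg/kg 2.15, both no longer called, and the AhR list had 0 genes up at 1 and 3, 2 at 10 (*Ugt1a6a* lost) and 4 at 30 µg/kg (*Nfe2l2* and *Tiparp* lost). *Por* at 30 µg/kg was lost too. DESeq2 had 0 list genes up at 1 µg/kg, called the *Cyp1a1* step from 0.3 to 1 µg/kg (3.69), as did no filter on low counts (3.66), and did not call the steps from 1 to 3 (3.25) and 10 to 30 µg/kg (1.62). By library size only, the *Cyp1b1* step from 0.03 to 0.1 µg/kg turned to -0.038. Within the first index use, rho with dose was 0.377 for *Cyp1a1*, 0.296 for *Cyp1b1* and 0.412 for their log ratio. From vehicle to 0.3 µg/kg, a subset chosen after seeing the data, it was 0.241, 0.142 and 0.284. ED50 values moved to 15.5 (*Cyp1a1*) and 9.21 µg/kg (*Cyp1b1*) on the CPM scale, and to 8.50 µg/kg for *Cyp1b1* with the slope fixed at 1. The causes were not tested.

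Leaving out 1 mouse at a time moved log2 fold changes of *Cyp1a1* against vehicle between -1.54 and 1.36 at 0.01 µg/kg, -0.76 and 0.43 at 0.03 µg/kg, and 4.69 and 5.89 at 1 µg/kg. Its steps ran between -1.56 and 1.31 (0.01 to 0.03 µg/kg), -1.31 and 0.82 (0.1 to 0.3), 2.92 and 3.68 (1 to 3) and 1.38 and 1.85 (10 to 30). *Cyp1b1* ran between -0.12 and 0.72 at 0.1 µg/kg and 1.39 and 2.12 at 3 µg/kg against vehicle, and its steps between -0.41 and 0.30 (0.03 to 0.1) and -0.22 and 0.48 (0.1 to 0.3). Fold changes whose sign turned were all at or below 0.3 µg/kg, where neither gene was called. The log ratio of the genes against vehicle, with no call at these doses, also turned sign at 0.01 µg/kg (-1.40 to 0.10) and at 0.3 µg/kg (-0.22 to 1.00). The other leave-one-out results kept direction and call. No paired analysis was possible because the labels give mice no numbers shared between doses. Depth limits *Cyp1a1* below 1 µg/kg, where each mouse had 0 to 14 counts.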
